A study of Drosophila melanogaster with 3 samples.

Results

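Sites bound by tagged Nerfin-1 were examined at the gene that encodes the protein, nerfin-1, and at its paralog nerfin-2, which are 2 of 13945 protein-coding genes annotated on the 6 chromosome arms analysed. The sites are peak summits, the positions of highest enrichment in chromatin immunoprecipitation and sequencing (ChIP-seq), and a summit was taken when it lay within 20 kb of either gene or when its nearest transcription start site (TSS) of a protein-coding gene was that of nerfin-1 or nerfin-2. This gave 20 of the 7056 summits of the list cut by irreproducible discovery rate (IDR, a measure of how well ranks repeat), 19 at nerfin-1 and 1 at nerfin-2, and 56 of the 30000 summits of the list called on the pooled replicates. The replicate lists, also of 30000 summits each, gave 51, 54 and 57. All 3 samples form 1 group: whole Drosophila melanogaster embryos of both sexes, 4 to 16 h old, from a transgenic line with nerfin-1 fused to GFP at its C terminus, precipitated with an antibody against GFP. The labels also speak of an insertion aimed at nerfin-1, but name neither its site, its promoter nor how much of the locus it carries. Reads from added copies and reads from the native gene thus cannot be told apart in these lists. This limits every rank, width and count at nerfin-1 below, also where it is set against nerfin-2 or other genes. Peak lists hold no expression values and no read counts, so the stage label could not be checked and read depth is unknown. Replicate 2 stood apart from replicates 1 and 3 in the order of its summits, which is given beside the results it touches. The design has no second condition, and the values below are descriptions without a test.

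nerfin-1 encodes a zinc-finger transcription factor of the family that includes EGL-46 of the nematode and INSM1 of vertebrates. It is transcribed in neural precursors and in newly born neurons of the embryo, its messenger RNA is held in check by microRNAs, and the protein is needed for early axon guidance. In the larval brain it keeps young neurons from returning to a stem cell state. nerfin-2 encodes a related zinc-finger protein and is known from a small set of brain neurons. A transcription factor found at its own gene is often called autoregulatory, but a peak shows only where the tagged protein was recovered, not what it does there.

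The reference sequence under the summits that the results turn on is given below from RefSeq release 6, whose coordinates are those of dm6, the build of the peak lists. Each line holds 101 bases centred on an IDR summit, shown for the strongest sites upstream of nerfin-1, the summit at its promoter, the strongest site past its end and the only IDR summit at nerfin-2. Capitals mark matches on either strand to the words described further on.
nerfin-1, 13305 bp upstream, chr3L:895757-895857, plus strand: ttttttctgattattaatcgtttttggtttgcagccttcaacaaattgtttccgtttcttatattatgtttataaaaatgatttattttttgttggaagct
nerfin-1, 9650 bp upstream, chr3L:899412-899512, plus strand: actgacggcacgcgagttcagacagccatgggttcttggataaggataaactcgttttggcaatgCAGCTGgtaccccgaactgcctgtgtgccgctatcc
nerfin-1, 7470 bp upstream, chr3L:901592-901692, plus strand: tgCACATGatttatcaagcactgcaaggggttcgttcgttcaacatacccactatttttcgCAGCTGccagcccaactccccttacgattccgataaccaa
nerfin-1, 5008 bp upstream, chr3L:904054-904154, plus strand: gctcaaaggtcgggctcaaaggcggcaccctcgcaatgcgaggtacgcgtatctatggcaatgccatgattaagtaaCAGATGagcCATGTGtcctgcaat
nerfin-1, 3856 bp upstream, chr3L:905206-905306, plus strand: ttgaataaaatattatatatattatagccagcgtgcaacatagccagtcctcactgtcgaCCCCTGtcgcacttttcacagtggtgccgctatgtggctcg
nerfin-1, 3616 bp upstream, chr3L:905446-905546, plus strand: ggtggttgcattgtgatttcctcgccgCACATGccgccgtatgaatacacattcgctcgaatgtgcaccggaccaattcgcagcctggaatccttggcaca
nerfin-1, 128 bp upstream, chr3L:908934-909034, plus strand: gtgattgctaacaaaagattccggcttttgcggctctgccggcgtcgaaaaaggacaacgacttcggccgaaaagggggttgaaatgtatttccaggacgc
nerfin-1, 3453 bp downstream, chr3L:912515-912615, plus strand: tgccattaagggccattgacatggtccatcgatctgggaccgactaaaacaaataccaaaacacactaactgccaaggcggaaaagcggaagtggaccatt
nerfin-2, 645 bp upstream, chr3R:10070422-10070522, plus strand: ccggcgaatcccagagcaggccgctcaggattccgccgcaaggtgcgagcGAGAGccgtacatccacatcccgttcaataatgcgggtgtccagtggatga

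nerfin-1 (FBgn0028999, chromosome 3L, 909112 to 912319, plus strand) is a gene of 1 exon, and most of the strong sites around it lay upstream. The 19 IDR summits ran over 21.7 kb, from 895807 to 917471, with 13 upstream of the TSS, 1 inside the gene and 5 past its 3′ end. They fell into 8 peak intervals, 5 of which held several summits. The nearest-TSS rule gave nerfin-1 only 4 of the 19, because the genes mat (6214 bp upstream) and Glut1 (4962 bp downstream) leave it a territory of 5.59 kb. Of all protein-coding genes, 28.6% had at least 1 IDR summit by that rule and 2.68% had at least 4. The best of the 4 ranked 475 by signal in the IDR list, and 3.13% of protein-coding genes had a best summit at or above that rank.

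**Figure D1:**
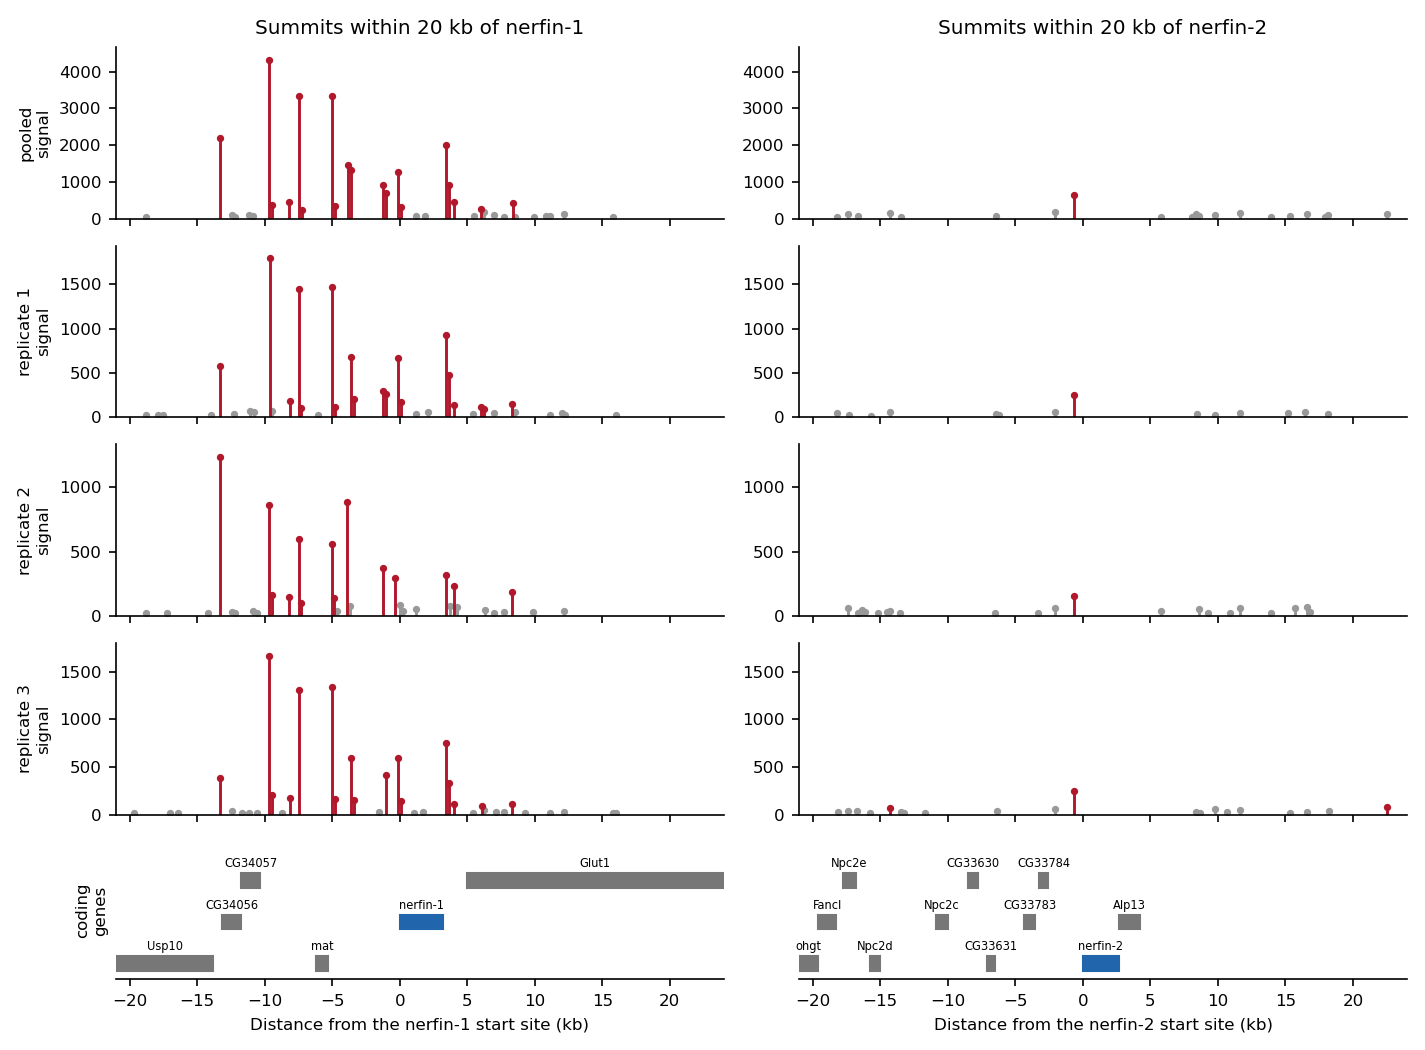
Signal (column 7 of each list, linear axis) of every summit within 20 kb of nerfin-1 (left) and nerfin-2 (right) against distance from the start site in kb, in the pooled list and in the 3 replicates, with protein-coding genes drawn to scale at the bottom. Red summits are among the 7056 strongest of their list and grey ones are weaker. The axes of both columns are equal within a row, and the tall summits upstream of nerfin-1 have no counterpart at nerfin-2.

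The strongest site of the locus lay 9650 bp upstream of nerfin-1, at 899462, between CG34057 and mat, and ranked 24 in the IDR list. Replicate 1 placed it at 13, replicate 2 at 230 and replicate 3 at 7. The sites 5008 bp and 7470 bp upstream, at 904104 and 901642, stood next, at IDR ranks 57 and 58. The former ranked 21, 558 and 16 in replicates 1, 2 and 3, and the latter 26, 500 and 18. All of these sites were intergenic, and replicate 2 placed each of them lower than the other replicates did. The fourth by signal, 13305 bp upstream at 895807, lay 144 bp from the TSS of CG34056 and ranked 246, 88 and 325. It was the strongest site of the locus in replicate 2 and only a middling one in replicates 1 and 3. In all, 3 of the 19 summits stood among the strongest 100 of the IDR list and 8 among the strongest 500.

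At the nerfin-1 promoter the binding formed 1 broad interval, from 907249 to 909608, with 4 summits. The main summit lay 128 bp upstream of the TSS, at 908984, with IDR rank 475, rank 182 in replicate 1 and rank 156 in replicate 3. Replicate 2 had no summit within 100 bp of it. The summits of replicate 2 on either side of it lay 4 bp past the TSS, at rank 7177, and 312 bp upstream of the TSS, at rank 1602. A weaker summit 91 bp downstream of the TSS (IDR rank 4222) fell in the 5′ UTR, and ranked 2044 and 1811 in replicates 1 and 3. Its match in replicate 2 was the same summit at rank 7177, which lay 87 bp from it. The summit 1210 bp upstream (IDR rank 822) was found in replicates 1 and 2, at ranks 769 and 1100. The summit 1004 bp upstream (IDR rank 1335) was found in replicates 1 and 3, at ranks 1004 and 302. Sites at the promoter were thus present in every replicate, while the position of its strongest point was not the same.

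The transcribed part of nerfin-1 beyond the 5′ UTR held no IDR summit. The pooled list had weak ones in the coding sequence at 910329 (rank 17788) and in the 3′ UTR at 911004 (rank 20202). Past the gene, binding rose again between nerfin-1 and Glut1, the gene of a glucose transporter. The summit 3453 bp downstream of the nerfin-1 TSS, at 912565, lay 1509 bp from the Glut1 TSS. It had IDR rank 181 and ranked 93, 1409 and 95 in replicates 1, 2 and 3. The last of the cluster were 2 summits in an intron of Glut1, at 915152 (IDR rank 5493) and 917471 (IDR rank 2780).

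The 2 widest intervals of the IDR list both lay at nerfin-1. The interval from 903774 to 906200 was 2427 bp wide, the first by width of 6838 IDR intervals, and the promoter interval at 2360 bp was the second. Only 0.0292% of IDR intervals, these 2, were at least that wide, and the same 2 were the only ones with 4 or more IDR summits (0.0292%). In the pooled list, which adds weaker summits, the intervals nearest to Rh5 (2275 bp) and spi (1577 bp) also held 4 each. The median IDR interval was 436 bp wide. Another at the locus, around the site 7470 bp upstream, was 1499 bp wide, at order 7. In the replicates, too, an interval upstream of nerfin-1 was the widest of the list in replicate 1 (2419 bp), replicate 2 (1215 bp) and replicate 3 (2355 bp). In replicate 1 the promoter interval (2329 bp) was again at order 2, whereas in replicates 2 and 3 the same stretch was called as several narrower intervals.

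**Figure D2:**
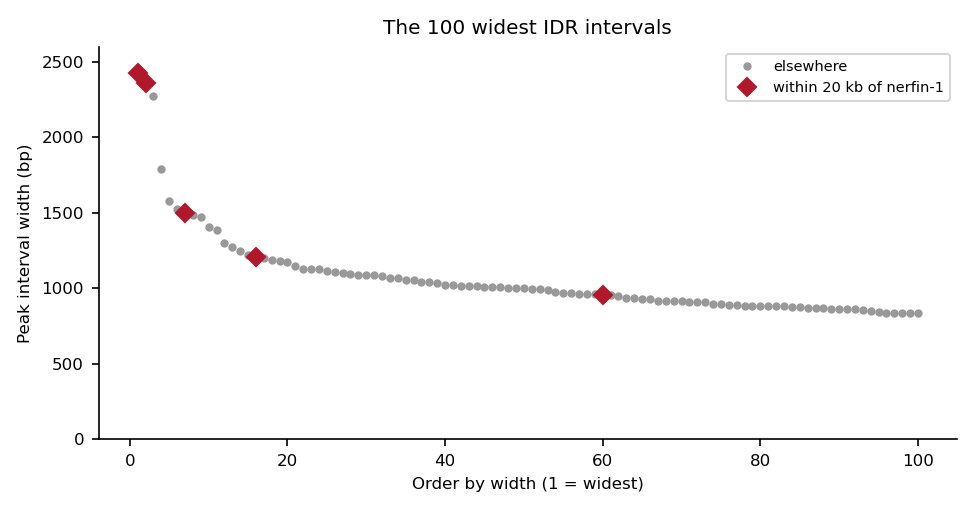
Width in bp of the 100 widest IDR peak intervals against their order by width. Red diamonds are intervals within 20 kb of nerfin-1, which take orders 1, 2, 7, 16 and 60, and grey points are all others.

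The number of summits within 20 kb of nerfin-1 was reached elsewhere only at longer genes, whose windows are longer too. At least 19 IDR summits within 20 kb were found for 0.136% of protein-coding genes, 19 in number, against a median of 3.00 for all of them. Of these, 6 lay at the same locus (nerfin-1, CG34056, CG34057, mat, Glut1 and Usp10) and share its summits, and the other 13 were genes of 34679 bp or longer, such as jing and sbb with 26 each. Per length of the window, the gene with 20 kb on each side, nerfin-1 had 0.440 summits per kb, and the highest of these 13 was tara with 0.321. The upstream neighbours CG34057, CG34056 and mat had more than nerfin-1, with 23, 22 and 21 summits and 0.556, 0.531 and 0.513 per kb. Usp10 and Glut1 had 0.363 and 0.184 per kb. Summits per kb were taken only for genes with at least 19 summits. Shorter genes with fewer were thus not compared, and the share of all genes as dense as nerfin-1 is not known. Among genes of at most 5 kb, the share with 19 or more was 0.0382%, which is nerfin-1, CG34056, CG34057 and mat. The pooled list had 36 summits within 20 kb of nerfin-1, a number reached by 1.88% of protein-coding genes. Among the 7056 strongest summits of each replicate, 19, 14 and 17 lay within 20 kb, 16.7 ± 2.52 (SD, n = 3).

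**Figure D3:**
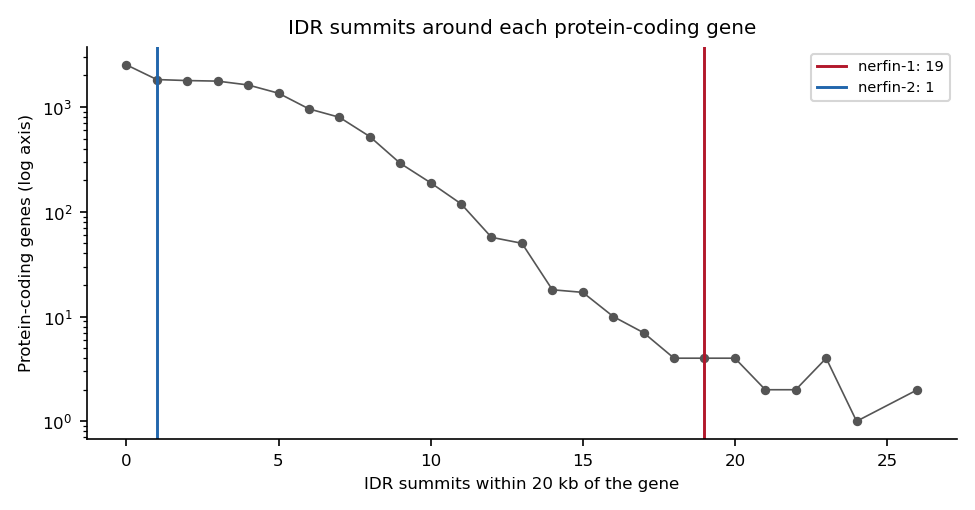
Number of protein-coding genes (log axis) against the number of IDR summits within 20 kb of the gene. The vertical lines mark nerfin-1 at 19 and nerfin-2 at 1, and the highest count is 26.

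Part of the count at nerfin-1 came from summits set at a regular distance from a stronger one. Of the 19, 7 lay 203 to 240 bp from a stronger summit, which leaves 12 sites when summits within 250 bp of a stronger one are counted once, 8 of them upstream of the TSS and 4 past the 3′ end. Some of the 7 were strong by themselves in a replicate. The summit at 905496, dropped for 905256, ranked 175 and 157 in replicates 1 and 3, which had no match for 905256. The summit at 908108, dropped for 907902, ranked 302 in replicate 3, which had no match for 907902. Across the IDR list, 193 of 218 summits that shared an interval with a stronger one (88.5%) lay within 250 bp of it, with a median gap of 204 bp and none under 199 bp. The commonest distance from the start of a peak to its summit was 218 bp. By the nearest-TSS rule nerfin-1 then kept 2 sites.

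The share of sites within 20 kb of nerfin-1 that was matched in all 3 replicates was near that of the whole IDR list. Replicate 2 ordered these sites differently from replicates 1 and 3. When a match had to lie within 100 bp and among the 7056 strongest of a replicate, 9 of the 19 were matched in all 3 replicates, 9 in 2 and 1 in 1, and over all IDR summits 47.3% were matched in all 3, 32.4% in 2 and 19.0% in 1. The 4 summits given to nerfin-1 by nearest TSS were each matched in 2 replicates only. In both replicates 1 and 3, without regard to replicate 2, 15 of the 19 were matched, and 66.0% of all IDR summits. Ranks were also compared across the nerfin-1 sites with a match within 100 bp, at any rank, in both lists of a pair. Spearman's rho was 0.91 for replicates 1 and 3, over 16 of them. With replicate 2 it was 0.51 for replicate 1 (over 15) and 0.48 for replicate 3 (over 13). These values are across neighbouring sites of the same libraries, which are not independent. Replicate 1 had 4 summits of the locus among its strongest 100, replicate 3 had 4 and replicate 2 had 1.

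**Figure D4:**
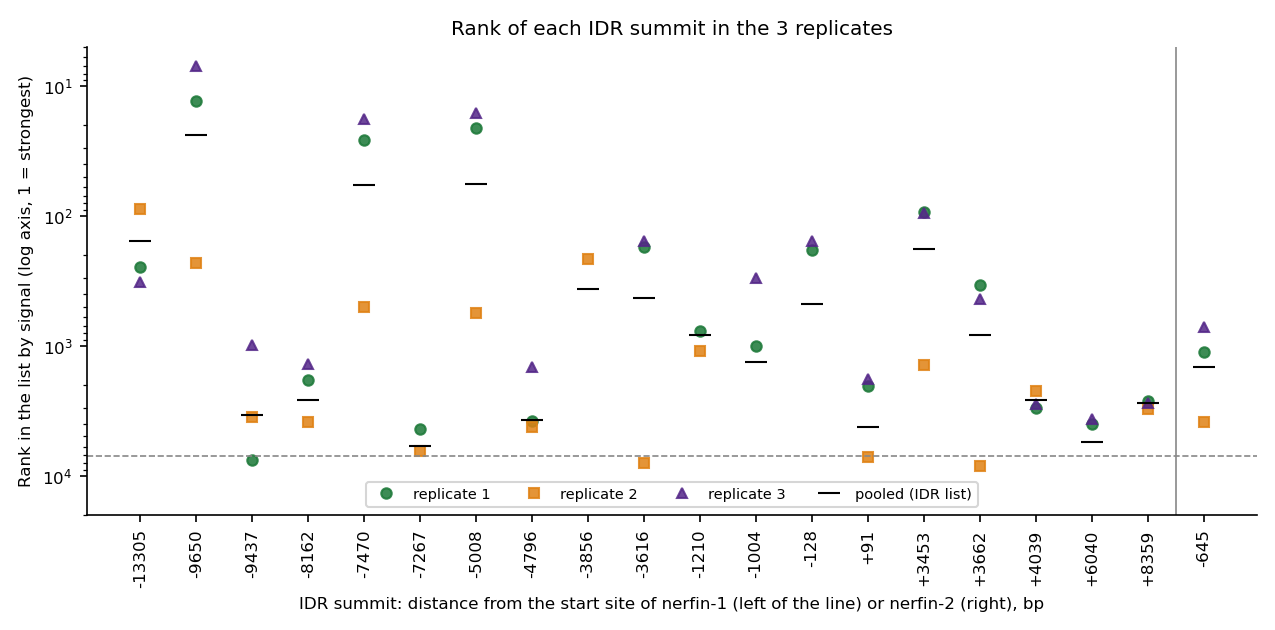
Rank by signal (log axis, strongest at the top) of each of the 19 IDR summits at nerfin-1 and the 1 at nerfin-2, in replicate 1 (circles), replicate 2 (squares) and replicate 3 (triangles), with the IDR rank as a bar. A missing symbol means no summit within 100 bp, and the dashed line marks rank 7056. Replicates 1 and 3 lie close together at most sites, and replicate 2 is lower at the strongest upstream sites and higher at 13305 bp upstream.

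The clearest exchange was in the widest interval. The summit 3856 bp upstream, at 905256, was found in replicate 2 only, at rank 216. The summit 3616 bp upstream, at 905496, stood at 175 and 157 in replicates 1 and 3. In replicate 2 its match within 100 bp was a summit 55 bp away, at 905441 and rank 7981. Base composition moved with this difference. The 201 bp around 905256 held 38.8% G+C and those around 905496 held 55.7%. The site 13305 bp upstream, which replicate 2 placed highest, held 29.9%, the lowest of the locus. G+C content was set against the log2 ratio of the rank in replicate 2 to the geometric mean rank in replicates 1 and 3. Over the 13 nerfin-1 summits matched within 100 bp in every replicate, Spearman's rho of the 2 was 0.75. Replicate 2 ranked 2 of the 13 better than that mean. The 13 are neighbouring sites of the same libraries, several within 250 bp of a stronger summit, and are not independent. The matched summits of replicate 2 lay up to 87 bp from the IDR summit, around which G+C content was taken. The highest ratio, 5.59, was that of 905496. Its match in replicate 2, at 905441, shared an interval with a stronger summit of that list, at 905236 and rank 216, so it may not be the same site. Over whole lists, the median G+C content under the 7056 strongest summits was 35.3% in replicate 2, 42.8% in replicate 1 and 43.3% in replicate 3. Under those of them within 20 kb of nerfin-1 the medians lay closer together, at 45.5% in replicate 2 and 46.8% in each of the others. The part of base composition in these ranks was not tested.

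**Figure D5:**
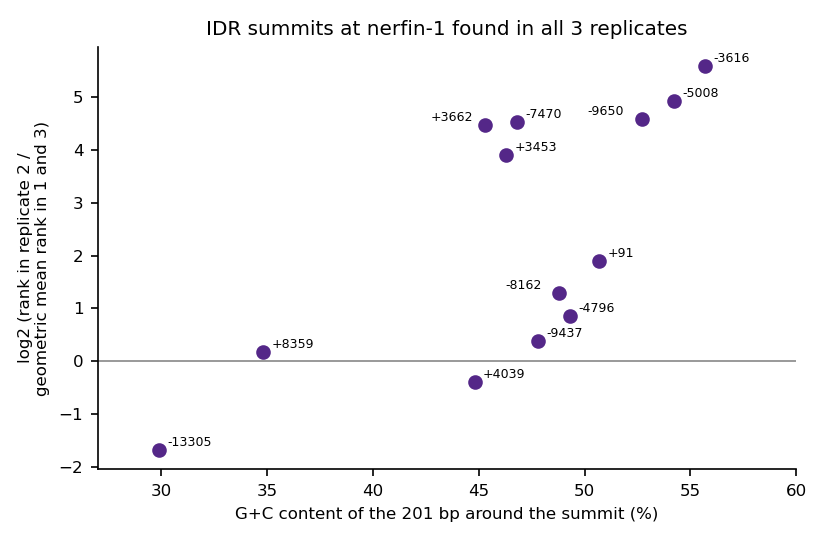
Log2 ratio of the rank in replicate 2 to the geometric mean of the ranks in replicates 1 and 3 against the G+C content of the 201 bp around the IDR summit. The 13 IDR summits at nerfin-1 matched within 100 bp in all 3 replicates are shown, each labelled with its distance from the TSS in bp. Values above 0 are sites ranked lower in replicate 2, and all values range from -1.68 at 29.9% G+C to 5.59 at 55.7%. The highest is the summit 3616 bp upstream, whose match in replicate 2 lay in the interval of a stronger summit of that list.

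nerfin-2 (FBgn0041105, chromosome 3R, 10071117 to 10073761, plus strand) has 3 exons and had 1 IDR summit, by the nearest-TSS rule and within 20 kb alike. It lay 645 bp upstream of the TSS, at 10070472, in intergenic sequence between CG33784 and nerfin-2, in an interval 344 bp wide. It ranked 1458 in the IDR list, and 8.45% of protein-coding genes had a best summit at or above that rank. In the replicates it ranked 1110, 3848 and 715. All 3 replicates thus placed it among their 7056 strongest, where 27.2%, 30.3% and 26.9% of protein-coding genes had at least 1 summit in replicates 1, 2 and 3. It was the only summit that any list gave to nerfin-2 by nearest TSS. At least 1 IDR summit within 20 kb is common, found for 81.9% of protein-coding genes and 79.9% of those of at most 5 kb, so the presence of a summit near nerfin-2 says little by itself.

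Beyond that summit the surroundings of nerfin-2 held weak sites. The pooled list had 20 within 20 kb, a number reached by 20.2% of protein-coding genes, and the 19 outside the IDR list ranked from 8340 to 29757. The best of these lay 2071 bp upstream of the TSS, nearest to CG33784, and ranked 9628, 10662 and 7301 in replicates 1, 2 and 3. Replicate 3 had 2 others among its strongest 7056, at ranks 5627 and 4671, and replicates 1 and 2 had none. The strongest summit given to each gene by nearest TSS stood at the top 1.60% ± 1.79 of the replicate lists for nerfin-1 (0.607%, 3.67% and 0.520%) and at the top 6.30% ± 5.69 for nerfin-2 (3.70%, 12.8% and 2.38%; SD, n = 3 for both). The nerfin-1 values are not of 1 site, so their SD is not the spread of 1 site. The summit lay 127 and 122 bp upstream of the TSS in replicates 1 and 3, and 1218 bp upstream in replicate 2. nerfin-1, the target of the insertion per the labels, was the higher in each of the 3 replicates. Replicate 2 gave the lowest place to both genes. Without replicate 2 the figures were 0.563% and 3.04%. With every site within 20 kb counted, the figure for nerfin-1 was 0.120% ± 0.150 (SD, n = 3) and that for nerfin-2 did not change. The nerfin-1 figure again mixed sites, 9633 and 9667 bp upstream in replicates 1 and 3 and 13299 bp upstream in replicate 2. The sites at nerfin-2 and nerfin-1 differed in G+C content, at 61.7% around the nerfin-2 summit against a range of 29.9% to 55.7% at nerfin-1 (median 47.8%), and the median over all IDR summits was 39.8%.

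The 20 kb limit did not cut through either group of IDR summits. At nerfin-1 the farthest IDR summit inside it was 13305 bp from the gene (rank 155) and the nearest outside it was 21070 bp away, at Usp10, which encodes a ubiquitin protease (rank 5195). At nerfin-2 the nearest outside was 22102 bp away, at ohgt (rank 6502). The replicate 3 summit of rank 4671, which is not in the IDR list, lay just inside the limit, 22553 bp past the nerfin-2 TSS.

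Known DNA words were sought on both strands within 50 bp of each summit. The E-box CANNTG, bound by proneural and other basic helix-loop-helix factors, was at 9 of the 19 nerfin-1 summits and at 38.2% of all IDR summits. It was at each of the 3 strongest, 9650, 5008 and 7470 bp upstream, as shown in capitals above. The sites next by signal, 13305 bp upstream, 3453 bp downstream and 3856 bp upstream, did not hold it. Of the 4 nerfin-1 summits by nearest TSS, 1 held it. GAGAG, the word of the GAGA factor, was at 4 of the 19 and at 13.8% of all IDR summits. It was also the only word found at the nerfin-2 summit, where it starts at the summit base. The words of Scalloped, the TEAD factor that is known to act with Nerfin-1, were each at 1 summit: ACATTCC at 913151, 4039 bp downstream (2.55% of all IDR summits), and GCATTCC at 908108, 1004 bp upstream (2.59%). The core of the vertebrate INSM1 word, CAGGGG, was at 1 summit, on the minus strand at 905256 (2.64%). TATCGATA of DREF (1.54%), CAGGTA of Zelda and Snail-type proteins (2.10%) and GTGGGAA of Su(H) (1.49%) were in none of the 20 windows. ACATTCC and GCATTCC share all but the first letter. The windows are few and some lie side by side, and a match or its absence says nothing of the factor itself.

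Genes known to act with or against nerfin-1, or to depend on it, are given for context. Of 15 genes of neurons and neuroblasts, 12 had at least 1 IDR summit by nearest TSS (28.6% of all protein-coding genes), 6 had at least 4 (2.68% of all), and 5 had a best summit at or above that of nerfin-1 (3.13% of all). These 5 included klu, a zinc-finger gene of neuroblasts, whose best summit ranked 4, 12 and 4 in the 3 replicates. The others named by rank were yki, the growth coactivator of the Hippo pathway (30, 23 and 55), E(spl)mgamma-HLH, a Notch target (154, 598 and 161), and brat, a translational repressor that limits neuroblast growth (372, 314 and 636). The 3 without an IDR summit were mdlc, Su(H) and dpn. Of 6 axon genes whose expression is known to depend on nerfin-1 in the embryo, 5 had an IDR summit and 1 a best summit at or above that of nerfin-1, against the same 28.6% and 3.13% of all protein-coding genes. That was Lar, a receptor tyrosine phosphatase (177, 1618 and 134), followed by the receptor gene drl (384, 942 and 466), the guidance receptor gene robo2 (1018, 2646 and 583) and futsch, a microtubule-associated protein gene (3468, 5739 and 4970). Galphao had none. These lists were chosen with results of these data known, and their counts are not independent evidence.

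The genes whose best summits were placed most like those of nerfin-1 were wor, which encodes a Snail-type protein of neuroblasts, mmd, side-VII, Pgant2 and Prdm13. Likeness was the distance between log10 ranks over the 3 replicates, among 5916 protein-coding genes with a summit in each. The best summits of wor ranked 180, 1059 and 151, a distance of 0.0223 from nerfin-1 (182, 1100 and 156), and that of Prdm13, the fifth, was 0.0995. For nerfin-2 the nearest were CG12531 (1096, 3849 and 741, distance 0.0165), CG46304, CG33144, CG31909 and alphaKap4 (distance 0.0778).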

How the data were processed

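The analysis used ChIP-seq peak lists of 3 biological replicates, 1 list for the pooled replicates and 1 IDR list, all on dm6 per the labels. Fragments were 200 to 800 bp per the labels. Per the notes deposited with the samples, lists were called against a control, which was not used here. No source used here names the aligner, the peak caller or the IDR threshold. Signal (column 7), as deposited by the authors without a stated normalization, served to rank summits within a list and to draw the map of both genes. The deposited −log10 q-values (column 9) stood at the cap in 100% of the IDR list and served for nothing further. The IDR list equals the 7056 strongest rows of the pooled list, so it did not require a site in each replicate. The lists of 30000 rows give no counts, so precision from depth is unknown. The age comes from the sample source label; another age label is too large for an embryo.

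Summits were assigned with Ensembl release 115 (BDGP6) in Python 3.11.15 with pandas 2.3.3, numpy 2.4.6 and scipy 1.17.1, and the assignment, matching and word search were tested on simulated data. Replicates were reduced to their 7056 strongest summits where stated, and summits within 100 bp were matched. The members, gene lists and words were chosen with earlier results of these data known. Named genes were both members, genes nearest to their IDR summits, the 4 best-ranked and all unbound genes of each list, and the 5 genes most like each member; genes with 19 or more summits nearby, those at other wide intervals and those just outside 20 kb were named after their values were seen.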

Additional observations from a re-analysis of the deposited data

How the results depend on the processing

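For nerfin-2, all 4 values reported stayed within 1.5 times, or 1 SD, of the reported value under every alternative run. For nerfin-1, the 4 summits by nearest TSS became 5 with the gene body and 1 kb, 3 when the weaker part of the IDR list was left out and 2 when summits within 250 bp of a stronger one were counted once, a setting chosen after seeing the data; without a replicate they ranged from 0 to 3, with 0 without replicate 1 and 1 without replicate 3. These settings keep only summits found in both other replicates, so they are shorter lists by construction. The 19 within 20 kb became 18 within 10 kb and 12 when close summits were counted once, and ranged from 10 to 15 without a replicate. The 9 found in all replicates became 15 when a match could lie within 250 bp and 13 against all 30000 rows, and ranged from 10 to 15 without a replicate, with 15 without replicate 2. Ranking by column 8 was not run, since that column holds 1 value throughout. No paired analysis was possible because all samples form 1 group. Without read counts, what depth limits is unknown.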

Other observations

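Runs of letters shared between the 101-base windows of the separate IDR summits at nerfin-1 and nerfin-2 were searched for on both strands after the windows had been seen, with 9 letters as the shortest run. The longest had 10 letters. GTGCCGCTAT was under the summits 9650 and 3856 bp upstream of nerfin-1, and under 3 of 7056 IDR summits in all (0.0425%). ACCCGCATTA was under the summit 4039 bp downstream of the nerfin-1 TSS and, on the other strand, under the nerfin-2 summit, and under 2 of 7056 in all (0.0283%). Any set of windows yields some shared runs, and these were not tested.

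The interval that stood next in width after the 2 at nerfin-1 was 2275 bp wide, with its strongest summit (IDR rank 13) nearest to Rh5, a rhodopsin gene, and the one after it was 1788 bp wide, nearest to the calmodulin gene Cam (IDR rank 274).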
